A study of Mus musculus with 23 samples.

Results

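The genes described here make cholesterol, sense its level and move it within and out of cells. A list of 31 genes was matched by symbol to a count table of 13766 genes from mouse hippocampus, and 30 were found. The remaining gene, Msmo1, stands in the table under its older symbol Sc4mol, so its values are given separately and it is not counted among the 30. By role, 18 of the 30 are synthesis enzymes (6 of the mevalonate pathway, 5 of the isoprenoid and squalene steps, 7 of the steps from lanosterol to cholesterol), 5 sense sterols and 7 transport, store or turn over cholesterol.

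The mice were of the FCG model, which crosses sex chromosomes with gonad type, in the C57Bl/6J strain. They were killed at about 12 months of age and housed in groups sorted by their visible genitalia. In this model, as background, Sry is deleted from the Y chromosome and an Sry transgene on an autosome gives testes, so that gonad and sex chromosomes are inherited separately. The 4 groups were XXF (XX with ovaries, 5 hippocampi), XXM (XX with testes, 6), XYF (XY with ovaries, 6) and XYM (XY with testes, 6), each hippocampus from a different animal. All XXM and XYM mice carry the transgene and both XY groups carry the Y chromosome without Sry. Hormone levels are not analysed here, so a gonad difference covers every effect of the gonads and of the transgene. The XY groups also differ in an X-linked gene near the X chromosome's end: Tlr7 was 1.07 ± 0.11 (SE) log2 units higher in XY (adjusted p = 2.79e-07, edgeR's quasi-likelihood test).

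Cholesterol does not cross the blood-brain barrier in useful amounts, so the brain makes its own, in the adult mainly in astrocytes and oligodendrocytes. Acetyl-CoA passes through mevalonate to isoprenoid units, which join into squalene, and squalene is closed to lanosterol and trimmed to cholesterol. When sterols are scarce, Scap carries the SREBP transcription factors out of the endoplasmic reticulum and the synthesis genes are switched on. When sterols are plentiful, the Insig proteins hold Scap back. Neurons remove cholesterol by turning it into 24-hydroxycholesterol with Cyp46a1, an enzyme of neurons.

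Total counts ran from 10257751 to 36078221 per library over the 23 libraries, and the smallest count of any of the 30 genes in any library was 146. All 30 passed the table's filter, a count of at least 20 in every library of at least 1 group, in all 4 groups. Xist was at 936 to 1470 CPM (counts scaled to the library total) in the XX libraries and at most 2.86 CPM in the XY libraries, apart from XYF replicate 4 with 94.1 CPM. Hippocampal cells were present in every library, with 6 neuron markers summing to 6783 to 8565 CPM, 6 astrocyte markers to 4378 to 5534 CPM and 9 myelin markers to 3989 to 6297 CPM. The summed level of 8 choroid plexus markers, none at 0 anywhere, ranged over XXF libraries from 69.8 to 1927 CPM, over XXM from 123 to 2649, over XYF from 74.2 to 3371 and over XYM from 56.8 to 2736. It exceeded 1000 CPM in 7 libraries, of which 4 were XXM and 1 was in each other group.

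Per kilobase of exon, the most abundant of the 30 was Hmgcs1, whose product makes HMG-CoA at the head of the mevalonate pathway (gene 208715, chr13:119690462-119708077 in mm10, plus strand). Its level was 73.6 CPM per kb averaged over the 23 libraries. Cyp46a1 (gene 13116, chr12:108334381-108362234, plus strand) followed with 61.0 CPM per kb, and then Srebf2, the SREBP that drives the synthesis genes, with 45.5 CPM per kb (gene 20788, chr15:82147269-82204960, plus strand). Sc4mol, which oxidises the C4 methyl groups of sterols, stood at 49.2 CPM per kb.

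Among the isoprenoid and squalene enzymes the highest was Fdps, which makes farnesyl diphosphate (38.6 CPM per kb). From lanosterol on it was Cyp51, the lanosterol 14-demethylase (19.2 CPM per kb). The lowest of the 30 was Soat1, which esterifies cholesterol for storage, at 3.11 CPM per kb, next to Stard4, a cytosolic sterol carrier, at 3.27 CPM per kb. Levels within a role were spread widely. In the mevalonate pathway Mvk, which phosphorylates mevalonate, and Mvd, which decarboxylates its diphosphate, lay at 9.04 and 10.4 CPM per kb, far under Hmgcs1. Lanosterol synthase, Lss, stood at 5.13 CPM per kb between the squalene epoxidase Sqle at 28.4 and Cyp51.

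**Figure D1:**
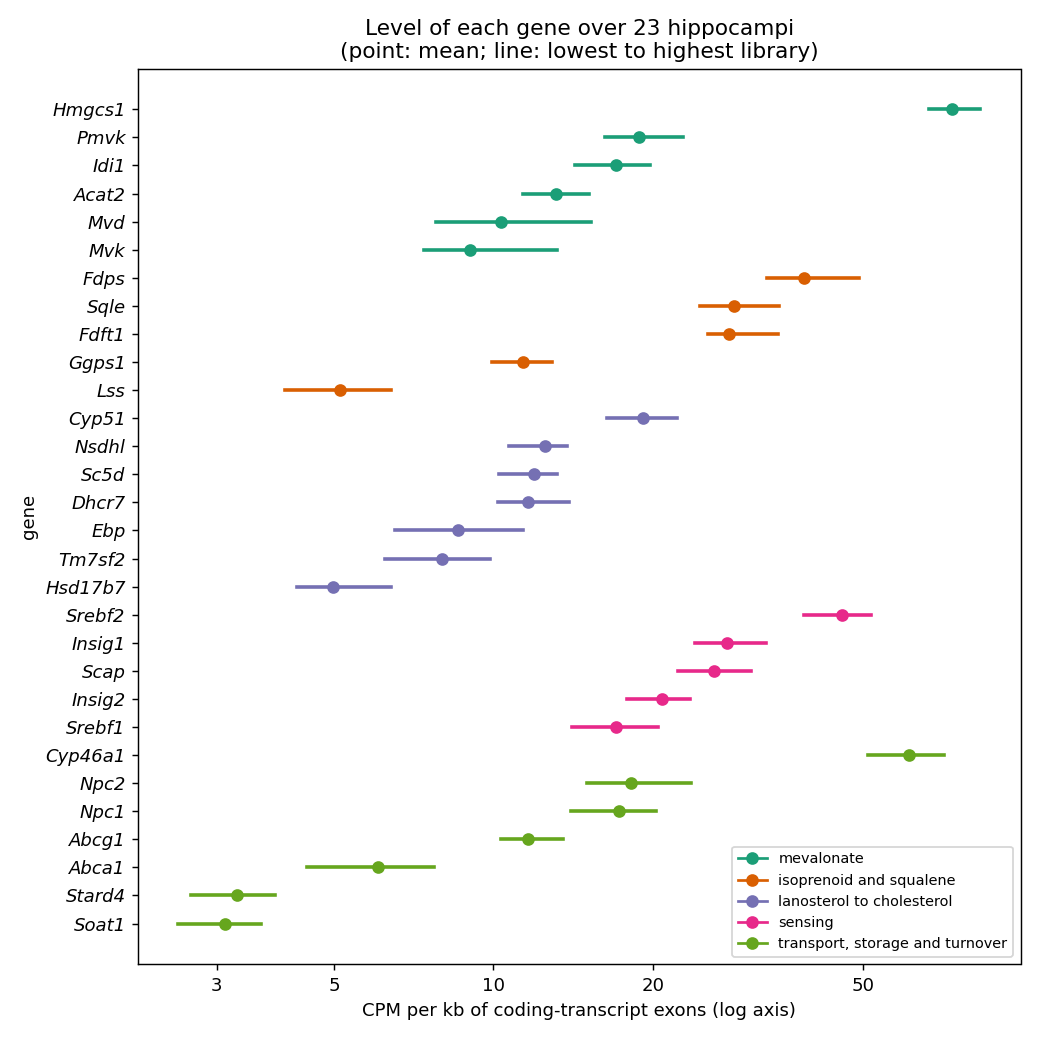
Mean level (point) and lowest to highest library (line) of each of the 30 genes, in CPM per kb of coding-transcript exons on a log axis, coloured by role. Hmgcs1 (73.6) and Cyp46a1 (61.0) are at the right, and Stard4 (3.27) and Soat1 (3.11) at the left.

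Promoter sequence from RefSeq (build GRCm38.p6) could be matched for 25 of the 31 listed genes, as 300 bases from 250 before to 50 after the RefSeq start. A CCAAT box, the letters CCAAT on either strand, is the site of NF-Y, a partner of the SREBPs at sterol genes. It was present in a promoter of 22 of the 25 genes (88.0%) and of 42.8% of the 10897 count-table genes with a promoter. Counted per promoter, it was in 37.4% of all 32851 of the same length. The sterol element TCACNCCAC on either strand was found in 1 of the 25 genes, Hmgcs1 (4.0%), and in 1.39% of those table genes. Counted per promoter, it was in 1.24% of all. A match is a run of letters and not a measured binding site. The 200 bases before the RefSeq start are shown for the most abundant gene, for the mevalonate genes Mvk and Mvd, which varied most among its enzymes, and for Cyp46a1, the gene with the smallest p for the gonad effect. Capitals mark the sterol element and each CCAAT box, which reads ATTGG where it lies on the opposite strand; no marked runs overlap. The windows are Hmgcs1 chr13:119690151-119690350 (plus strand), Mvk chr5:114444069-114444268 (plus strand), Mvd chr8:122443423-122443622 (minus strand) and Cyp46a1 chr12:108334116-108334315 (plus strand).
Hmgcs1: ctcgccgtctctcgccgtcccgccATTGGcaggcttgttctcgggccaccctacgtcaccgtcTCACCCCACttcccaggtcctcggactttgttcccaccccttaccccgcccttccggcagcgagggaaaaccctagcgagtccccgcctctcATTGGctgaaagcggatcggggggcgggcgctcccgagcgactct
Mvk: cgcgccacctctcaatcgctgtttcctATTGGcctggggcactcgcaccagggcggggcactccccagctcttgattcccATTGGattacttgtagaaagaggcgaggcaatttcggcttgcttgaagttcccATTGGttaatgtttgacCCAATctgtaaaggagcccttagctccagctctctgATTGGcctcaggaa
Mvd: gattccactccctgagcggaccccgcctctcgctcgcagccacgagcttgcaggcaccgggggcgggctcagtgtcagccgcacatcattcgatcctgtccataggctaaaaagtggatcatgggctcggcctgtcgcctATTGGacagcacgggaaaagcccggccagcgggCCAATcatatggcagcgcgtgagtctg
Cyp46a1: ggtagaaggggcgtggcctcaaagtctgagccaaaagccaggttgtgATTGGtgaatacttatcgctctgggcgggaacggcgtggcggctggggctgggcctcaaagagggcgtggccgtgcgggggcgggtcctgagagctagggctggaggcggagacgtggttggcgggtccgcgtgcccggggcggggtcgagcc
In the Hmgcs1 window the sterol element begins 137 bases before the start and lies between CCAAT boxes that begin 176 and 45 bases before it. The Mvk window holds 5 CCAAT boxes, the Mvd window 2 and the Cyp46a1 window 1.

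Across the 23 hippocampi the genes were steady. The ratio of the highest to the lowest library ran from 1.25 for Hmgcs1 to 1.96 for Mvd. With group means removed, the median SD over libraries was 0.116 log2 units for the 30 genes and 0.153 for all genes, and 72.4% of all genes varied more than the median member. The genes compared were not matched for level, so this may reflect level as well. The genes that varied most were Mvd (0.20), Abca1 (0.18), the cholesterol exporter, and Mvk (0.17). Hmgcs1 (0.07), Ggps1 (0.08), which makes geranylgeranyl diphosphate, and Srebf2 (0.08) varied least.

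The library at the top was often the same. XYF replicate 6 held the highest value of 10 of the 30 genes, 8 of them synthesis enzymes (Mvk, Pmvk, Mvd, Fdps, Fdft1, Sqle, Cyp51 and Ebp). Over all genes 13.4% were highest in that library. XYM replicate 5 held the lowest value of 7 of the 30, of which 6 were synthesis enzymes, against 3.34% of all genes. These counts were made after the values were seen. The cause of either library's position was not tested.

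**Figure D2:**
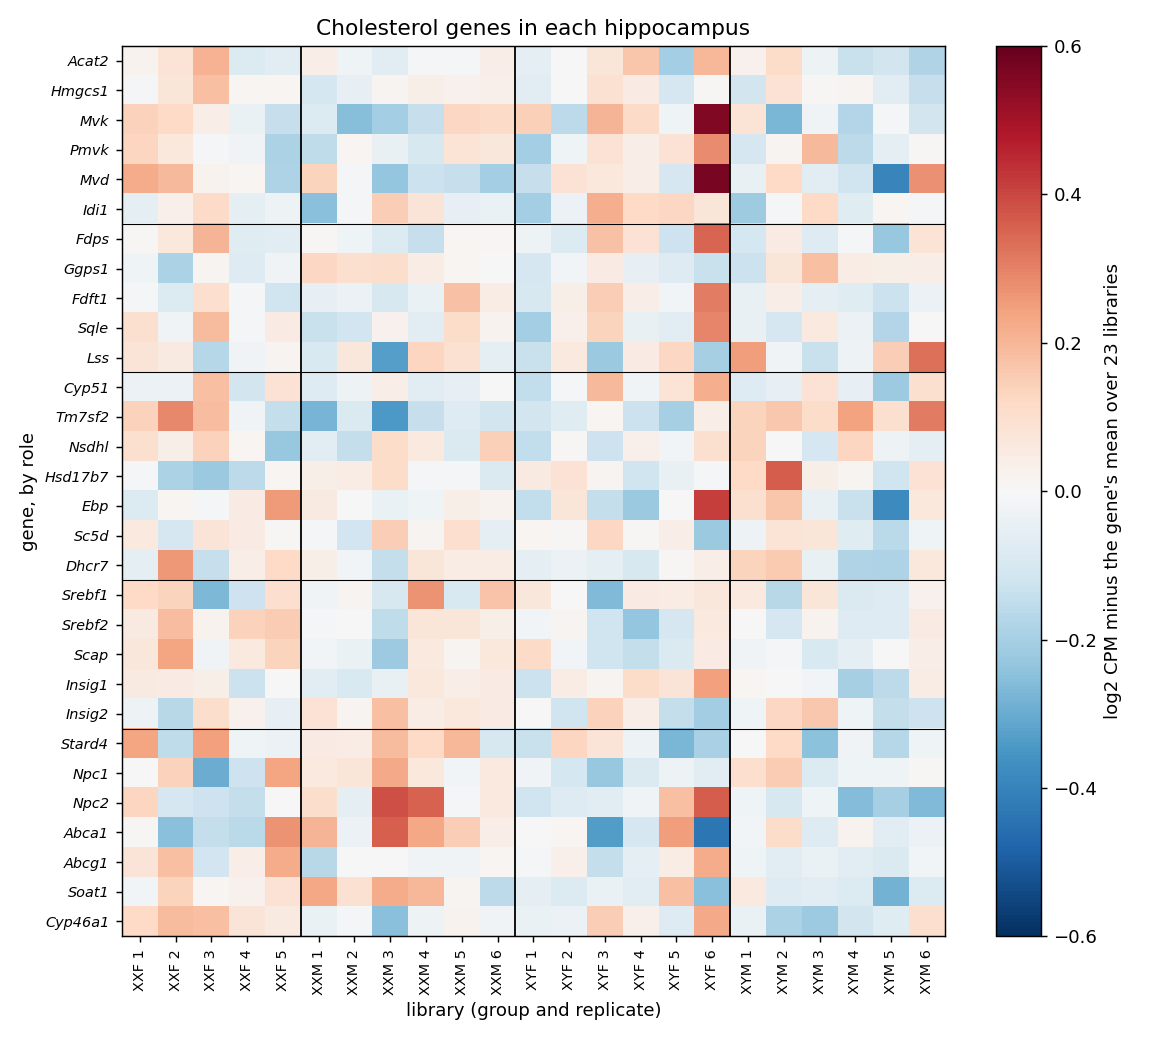
Each gene (rows, by role) in each of 23 libraries (columns, by group), as log2 CPM minus the gene's mean over all libraries. The column of XYF replicate 6 is red for most synthesis enzymes, with Mvk and Mvd the deepest, and no group stands out as a block.

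The mean log2 CPM of the 18 synthesis enzymes was 5.32 ± 0.04 (SD, n = 5) in XXF, 5.28 ± 0.03 (n = 6) in XXM, 5.32 ± 0.09 (n = 6) in XYF and 5.30 ± 0.06 (n = 6) in XYM. The group means were no further apart than libraries of the same group. For the transport, storage and turnover genes the means were 5.81 ± 0.07 in XXF, 5.85 ± 0.07 in XXM, 5.75 ± 0.04 in XYF and 5.72 ± 0.05 in XYM. The 2 XY groups were the lower ones there, with ranges that overlapped those of the XX groups. In XXM, XYF and XYM this score was higher in the libraries rich in choroid plexus markers. The 4 rich XXM libraries (5.83 to 5.94) lay above the other 2. The rich library of XYF (5.82) and of XYM (5.79) lay above the rest of its group. In XXF the rich library (5.86) lay below the highest of the others (5.90). Without the 7 rich libraries the means were 5.79 ± 0.07 (SD, n = 4) in XXF, 5.78 ± 0.02 (n = 2) in XXM, 5.73 ± 0.03 (n = 5) in XYF and 5.71 ± 0.05 (n = 5) in XYM. In bulk tissue, fewer cells of a type and less RNA per cell cannot be told apart.

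The first comparison asked which genes follow the sex chromosomes, as XY minus XX averaged over gonads. None of the 30 genes passed an adjusted p of 0.05 in edgeR's quasi-likelihood test over all 13766 genes, where 39 genes did (0.283%), and DESeq2 and limma called none of the 30 either. At an unadjusted p under 0.05 there were 3 of the 30, all lower in XY, and 6.78% of all genes. The 95% intervals of the 30 differences lay between -0.27 and 0.23 log2 units. The median difference was -0.03 for the 30, 0.02 for the synthesis enzymes and 0.00 for all genes. All 7 transport, storage and turnover genes had estimates under 0, with a median of -0.10, while 6764 of all 13766 genes were lower in XY. With the choroid plexus markers as a covariate, and without the 7 libraries rich in them, all 7 were again under 0 and the median was -0.06.

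Srebf2 had the smallest p of the 30. Its CPM in XXF was 239, 262, 234, 254 and 256. In XXM the lowest, median and highest libraries were at 207, 234 and 243 CPM, in XYF at 197, 221 and 241, and in XYM at 215, 225 and 239. XXF was the highest group, yet its lowest library lay inside the range of every other group. The difference was -0.10 ± 0.04 (SE) log2 units (adjusted p = 0.514). With ovaries alone it was -0.17 ± 0.05 (adjusted p = 0.419), and -0.14 without XYF replicate 4, the library with Xist and the lowest Srebf2 value.

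Soat1 was at 25.6, 28.4, 26.1, 26.4 and 27.5 CPM in XXF. Its lowest, median and highest values were 23.3, 28.7 and 30.4 CPM in XXM, 21.8, 24.9 and 29.4 in XYF, and 21.3, 24.5 and 27.0 in XYM. The XY libraries were mostly lower, but each XY group overlapped each XX group. The difference was -0.14 ± 0.05 (SE) log2 units (adjusted p = 0.529). It was -0.10 with the choroid plexus markers as a covariate and -0.12 without the 7 libraries rich in them. With testes alone it was -0.19 ± 0.07 (adjusted p = 0.921, edgeR), -0.10 with that covariate and -0.08 without those libraries.

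Stard4 read 19.95, 15.2, 20.1, 16.6 and 16.5 CPM in XXF, with lowest, median and highest libraries at 15.8, 17.97 and 19.4 CPM in XXM, 13.98, 16.02 and 18.5 in XYF, and 14.3, 16.7 and 18.4 in XYM. The groups overlapped. Its difference was -0.14 ± 0.06 (SE) log2 units (adjusted p = 0.692, edgeR). It was -0.13 with the choroid plexus markers as a covariate and -0.05 without the libraries rich in them. Whether those cells had a part in the Soat1 and Stard4 differences was not tested.

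The list holds 2 X-linked synthesis genes, Nsdhl (gene 18194, chrX:72918521-72958528), a sterol C4 decarboxylase, and Ebp (gene 13595, chrX:8185331-8193512), a sterol isomerase. Nsdhl averaged 27.4 ± 2.6 CPM (SD, n = 5) in XXF, 27.2 ± 2.2 (n = 6) in XXM, 26.7 ± 1.7 (n = 6) in XYF and 27.4 ± 1.9 (n = 6) in XYM. Its XY minus XX difference was -0.02 log2 units with a 95% interval of -0.12 to 0.09 (adjusted p = 0.981, edgeR). Ebp averaged 15.3 ± 1.4 CPM in XXF, 14.9 ± 0.4 in XXM, 14.97 ± 2.6 in XYF and 14.6 ± 1.9 in XYM, with a difference of -0.03 and an interval of -0.18 to 0.12 (adjusted p = 0.975, edgeR). Both intervals held 0.

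The pairwise comparisons ask the same with each gonad. For XYF against XXF none of the 30 passed over all genes (40 genes did, 0.291%), and 2 of the 30, Srebf2 and its escort Scap, were at an unadjusted p under 0.05, beside 5.17% of all genes. Scap averaged 118 ± 8 CPM (SD, n = 5) in XXF and 108 ± 8 (n = 6) in XYF, a difference of -0.12 ± 0.06 (SE) log2 units (adjusted p = 0.917). It was -0.09 without XXF replicate 2, the highest library. None of the 30 had non-overlapping groups there, against 0.821% of all genes.

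**Figure D3:**
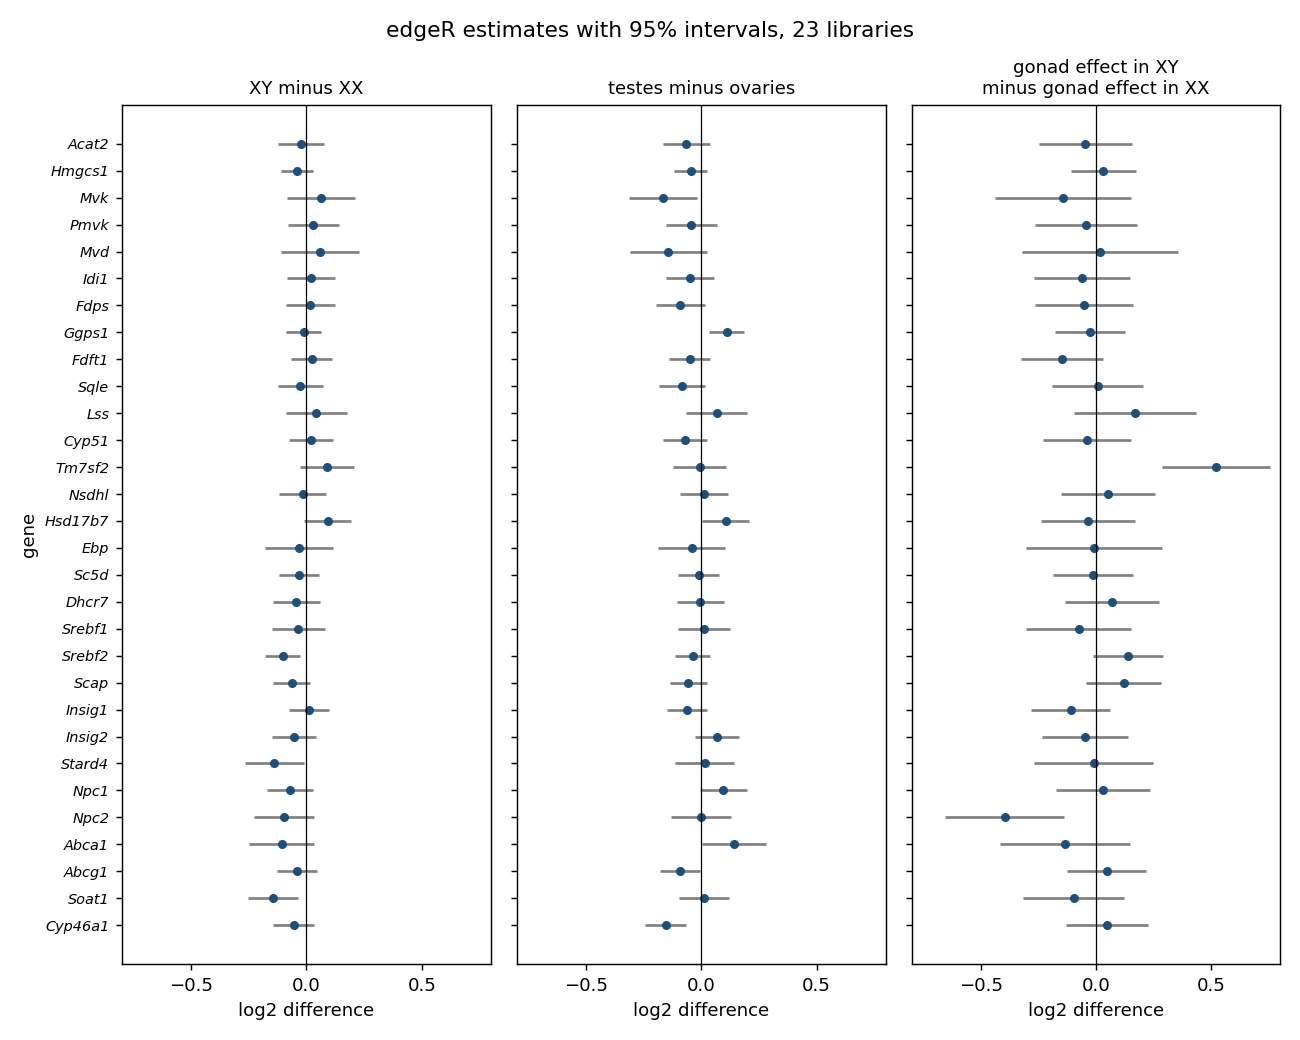
edgeR estimate (point) and 95% interval (line) of each of the 30 genes for XY minus XX, testes minus ovaries and the interaction, on 1 log2 axis from -0.8 to 0.8. The estimates lie near 0 in the first 2 panels, and in the third Tm7sf2 (0.52) lies to the right and Npc2 (-0.40) to the left.

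The second comparison was testes minus ovaries, averaged over the sex chromosomes. None of the 30 genes passed over all genes, where 22 did (0.16%), and DESeq2 and limma called none of the 30. At an unadjusted p under 0.05 there were 6 of the 30, of which 3 were higher and 3 lower with testes, against 13.6% of all genes. The intervals lay between -0.31 and 0.28 log2 units. The median was -0.04 for the 30 and 0.00 for all genes. All 6 mevalonate enzymes had estimates under 0, with a median of -0.06, and 7021 of all 13766 genes were lower with testes.

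Cyp46a1 had the smallest p. XXF libraries read 140, 147, 146, 136 and 133 CPM, and the lowest, median and highest were 108, 126 and 131 CPM in XXM, 122, 128 and 150 in XYF, and 111, 121 and 138 in XYM. Every XXF library lay above every XXM library, while XYF and XYM overlapped. Of all genes 0.763% had non-overlapping groups in XXM against XXF, and Cyp46a1 was the only member among them. The gonad difference was -0.15 ± 0.04 (SE) log2 units, a 10.1% lower level with testes (adjusted p = 0.159). It was -0.18 ± 0.06 in XX and -0.13 ± 0.06 in XY, with an interaction of 0.05 and an interval that held 0. Over the alternatives the adjusted p of the gonad difference ran from 0.0709 with DESeq2 to 0.794 without the choroid plexus-rich libraries.

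Ggps1 ran the other way. It stood at 48.9, 43.7, 50.3, 47.2 and 49.0 CPM in XXF, and the lowest, median and highest libraries were at 49.9, 52.3 and 54.3 CPM in XXM, 45.4, 47.7 and 51.5 in XYF, and 45.5, 51.2 and 56.5 in XYM. The testis groups were the higher ones, with 1 XXF library inside the XXM range. The difference was 0.11 ± 0.04 (SE) log2 units (adjusted p = 0.216).

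Mvk read 19.7, 19.5, 18.4, 17.4 and 16.3 CPM in XXF, with lowest, median and highest libraries at 14.99, 16.6 and 19.5 CPM in XXM, 16.02, 19.6 and 26.4 in XYF, and 14.8, 17.1 and 18.9 in XYM. XYF replicate 6 was the library at 26.4. The gonad difference was -0.17 ± 0.07 (SE) log2 units (adjusted p = 0.314), and -0.12 without that library. In XY alone it was -0.24 ± 0.10 (adjusted p = 0.522), and -0.14 without that library.

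The other members at an unadjusted p under 0.05 were Hsd17b7, a sterol ketoreductase, at 0.11 ± 0.05 (SE), Abca1 at 0.14 ± 0.07 and Abcg1, the partner exporter, at -0.09 ± 0.04 log2 units (adjusted p = 0.346, 0.361 and 0.332, edgeR). Abca1 and Abcg1, which act together in cholesterol export, thus had estimates of opposite sign. The Abca1 gonad difference was 0.10 with the choroid plexus markers as a covariate and 0.10 without the libraries rich in them. In XX alone it was 0.21 ± 0.10, and 0.11 with that covariate and 0.05 without those libraries. The part of choroid plexus cells was not tested.

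Within XX, none of the 30 genes passed for XXM against XXF, and none of all 13766 genes did (0%). At an unadjusted p under 0.05 there were 5 of the 30 (Ggps1, Tm7sf2, Npc2, Abca1 and Cyp46a1) and 7.71% of all genes; DESeq2 called 1 gene, no member. The Npc2 difference there was 0.20 ± 0.09 (SE) log2 units, but 0.09 with the choroid plexus markers as a covariate and 0.08 without the libraries rich in them. Within XY, none of the 30 passed for XYM against XYF, where 31 genes did (0.225%), and 5 of the 30 (Mvk, Fdft1, Tm7sf2, Npc2 and Cyp46a1) were at an unadjusted p under 0.05, as were 8.63% of all genes. The Fdft1 estimate there, for squalene synthase, was -0.12 ± 0.06 (SE), and -0.07 without XYF replicate 6, and those of Npc2 and Cyp46a1 went from -0.20 to -0.13 and from -0.13 to -0.09.

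The third comparison asked whether the gonad difference depends on the sex chromosomes. No gene of the 13766 passed (0%) by edgeR, DESeq2 or limma. At an unadjusted p under 0.05 there were 2 of the 30 by edgeR, against 3.23% of all genes. The members found by edgeR were Tm7sf2 and Npc2, with opposite signs. DESeq2 gave 3 of the 30, and its share over all genes was not computed. The median interaction was -0.02 for the 30 and -0.01 for all genes.

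Tm7sf2 (gene 73166, chr19:6062821-6067850, minus strand) encodes a sterol 14-reductase that acts after Cyp51, and its place among the smallest interaction p-values was known when the list was chosen. Its CPM in XXF was 14.8, 16.4, 15.3, 13.2 and 12.2. The lowest, median and highest libraries were at 10.6, 12.3 and 12.7 CPM in XXM, 11.7, 12.6 and 13.8 in XYF, and 14.4, 14.9 and 16.7 in XYM. XXF and XYM were the higher groups. Every XYM library lay above every XXM and every XYF library, while XXF overlapped XXM and XYF. Non-overlap in either direction held for 0.37% of all genes in XYM against XXM and 0.341% in XYM against XYF.

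The Tm7sf2 gonad difference was -0.27 ± 0.08 (SE) log2 units in XX (adjusted p = 0.624) and 0.25 ± 0.08 in XY (adjusted p = 0.329). Their difference, the interaction, was 0.52 ± 0.11 with a 95% interval of 0.29 to 0.75, the second smallest p of all genes, and its adjusted p was 0.670. With XY against XX compared at testes only, Tm7sf2 was 0.35 ± 0.08 log2 units higher in XYM than in XXM, a 27.5% higher level. Its adjusted p there was 0.0913 with edgeR, by which none of the 30 passed and 16 of all genes did (0.116%). DESeq2 gave 0.00615, limma voom 0.0271, limma voom with sample quality weights 0.0116 and limma on the deposited log2 values 0.0277, each calling this member. In that order these tests called 21, 17, 22 and 15 of all genes. Without XXF replicate 5 the edgeR value was 0.0405. These are the 5 of 35 settings in which it passed. The difference was 0.31 (adjusted p = 0.439) with the choroid plexus markers as a covariate and 0.30 (adjusted p = 0.9999) without the 7 libraries rich in them, both by edgeR. At ovaries only the difference was -0.17 ± 0.08 (adjusted p = 0.962).

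Exons of Tm7sf2 overlap those of Vps51 on the same strand, so reads in the overlap may be assigned to either gene. Vps51 had an interaction of 0.03 (adjusted p = 0.999, edgeR). The Tm7sf2 interaction was 0.44 (adjusted p = 0.987) without the 7 choroid plexus-rich libraries, which leaves 2 XXM libraries. For its neighbours in the pathway the interaction was -0.04 ± 0.09 (SE) for Cyp51, which acts before it, and -0.09 ± 0.11 for Sc4mol, which acts after it, and both intervals held 0. Lbr, which carries the same reductase activity, had an interaction of 0.16 ± 0.14 and an interval of -0.14 to 0.46.

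Npc2, which hands cholesterol from the lysosome lumen to Npc1, showed the opposite order. XXF libraries were at 65.3, 55.6, 54.7, 54.0 and 59.6 CPM, and the lowest, median and highest were 57.4, 63.2 and 78.1 CPM in XXM, 54.9, 57.9 and 76.8 in XYF, and 49.6, 53.9 and 58.6 in XYM. The highest libraries were in XXM and XYF, and all groups overlapped. The interaction was -0.40 ± 0.13 (SE) log2 units (adjusted p = 0.999), and XYM was -0.30 ± 0.09 from XXM (adjusted p = 0.835). With the choroid plexus markers as a covariate the interaction was -0.28 and the XYM minus XXM difference -0.18. Without the 7 libraries rich in them these were -0.28 and -0.16. The highest XYF library, replicate 6, was not among those rich libraries, and without it the interaction was -0.32. The part of choroid plexus cells was not tested. Npc1 itself, the membrane partner of Npc2, had an interaction of 0.03 and an interval that held 0.

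At testes only, 3 of the 30 genes were at an unadjusted p under 0.05 for XYM against XXM (Tm7sf2 higher, Npc2 and Soat1 lower), against 5.29% of all genes. All 7 transport, storage and turnover genes and all 5 sensing genes had estimates under 0 in that comparison, with medians of -0.14 and -0.04 beside 0.00 for all genes. The XXM group held 4 of the 7 choroid plexus-rich libraries. The median of the 7 transport, storage and turnover genes was -0.07 with those markers as a covariate and -0.05 without the rich libraries, with all 7 estimates under 0 in both.

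**Figure D4:**
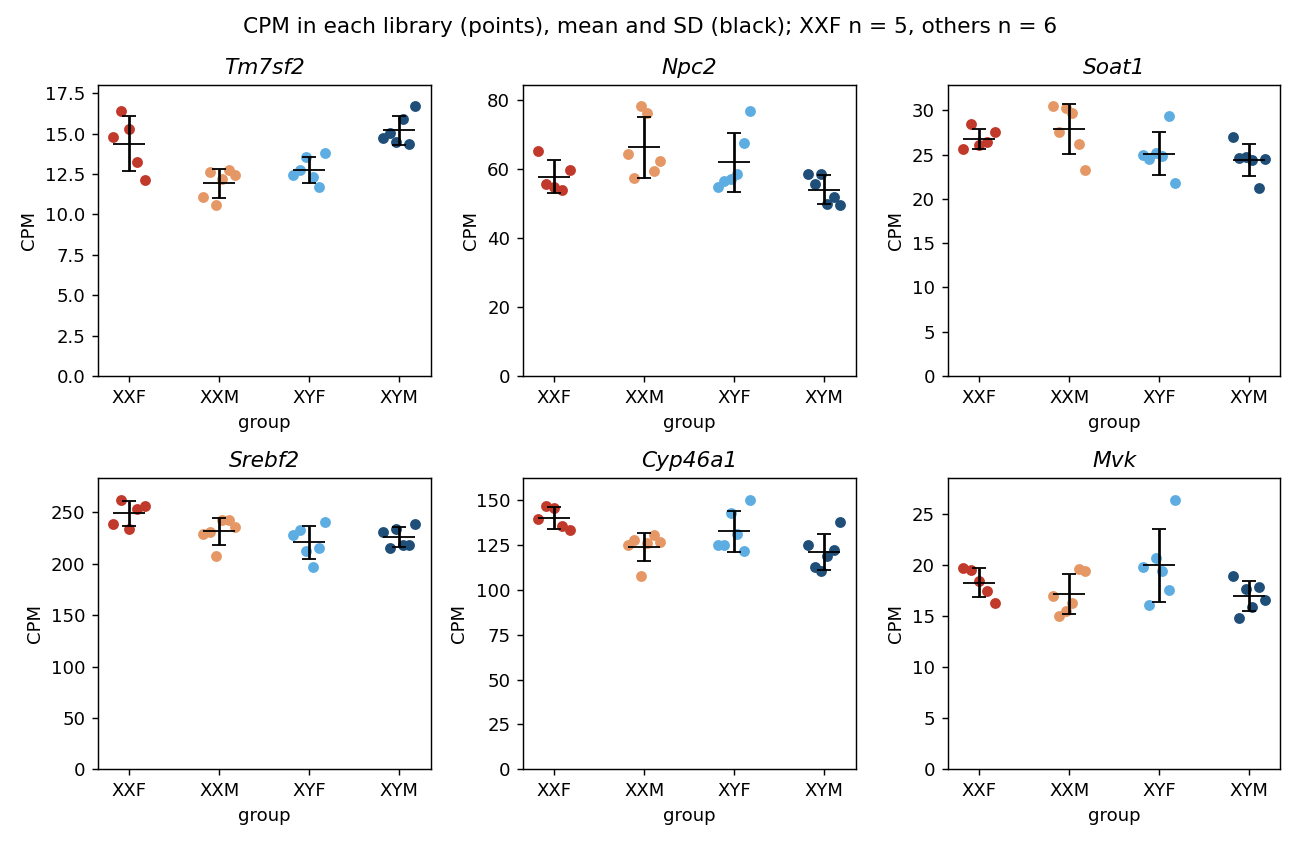
CPM of 6 genes in each library (points) with the group mean and SD (black), each axis from 0. For Tm7sf2 all 6 XYM libraries sit above all XXM and XYF libraries, for Cyp46a1 all XXF libraries sit above all XXM libraries, and the highest Mvk point is XYF replicate 6.

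Of the 5 sensing genes, Srebf2 and Scap had XYF minus XXF intervals under 0, at -0.28 to -0.06 and -0.24 to -0.01 log2 units, with adjusted p of 0.419 and 0.917 by edgeR. Srebf1, the SREBP that mainly drives fatty acid genes, averaged 73.1 ± 8.8 CPM (SD, n = 5) in XXF, 75.5 ± 8.0 (n = 6) in XXM, 73.0 ± 6.1 (n = 6) in XYF and 71.7 ± 4.7 (n = 6) in XYM. Insig1, itself an SREBP target, averaged 74.5 ± 3.8, 74.1 ± 3.5, 77.9 ± 6.6 and 71.9 ± 4.9 CPM in the same order. Insig2 averaged 60.4 ± 4.2, 64.5 ± 2.6, 59.4 ± 5.4 and 61.2 ± 5.3 CPM, and Scap 118 ± 8 in XXF and 109 ± 8, 108 ± 8 and 108 ± 3 CPM in the others. For Srebf1 and Insig2 the intervals of all 7 comparisons held 0. For Insig1 they did so too, the nearest to the limit being XYM minus XYF at -0.12 ± 0.06 (SE) log2 units (adjusted p = 0.586, edgeR).

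The enzymes with the highest level of their role are given next. Hmgcs1 was at 254, 269, 290, 258 and 258 CPM in XXF, with lowest, median and highest libraries at 238, 259 and 262 CPM in XXM, 239, 256 and 273 in XYF, and 232, 251 and 272 in XYM. All groups overlapped. Its differences were -0.04 ± 0.03 (SE) log2 units for XY minus XX, -0.05 ± 0.03 for testes minus ovaries and 0.03 ± 0.07 for the interaction (adjusted p = 0.908, 0.565 and 0.999, edgeR). Fdps averaged 57.1 ± 4.6 CPM (SD, n = 5) in XXF, 54.6 ± 2.3 (n = 6) in XXM, 58.8 ± 7.6 (n = 6) in XYF and 54.2 ± 4.2 (n = 6) in XYM, and Cyp51 76.2 ± 6.2, 73.6 ± 2.3, 78.2 ± 7.6 and 73.5 ± 5.9 CPM. Sc4mol averaged 102 ± 16, 99.4 ± 3.8, 105 ± 12 and 96.7 ± 5.5 CPM. For all 3 the intervals of the 7 comparisons held 0.

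Beyond the list, 25 of 27 other genes of sterol handling and 14 of 14 genes of the fatty acid arm of the SREBP targets were in the table. None of either passed over all genes in any of the 7 comparisons. In the sex chromosome effect 3 of the 25 (Rxra, Stard3 and Nus1) and 1 of the 14 (Elovl6, a fatty acid elongase) were at an unadjusted p under 0.05, all lower in XY, beside 6.78% of all genes. These are 12% and 7.14% of the lists. The smallest p was that of Rxra, the partner of the liver X receptors, at -0.12 ± 0.04 (SE) log2 units (adjusted p = 0.496). In the gonad effect there were 6 of the 25 (24%) and 1 of the 14 (7.14%), beside 13.6% of all genes, led by Gramd1b, which carries sterols from the plasma membrane to the endoplasmic reticulum, at 0.15 ± 0.05 (adjusted p = 0.209). In the interaction there was 1 of the 25 (4%, beside 3.23% of all genes), the sterol exporter Abcg4, at 0.25 ± 0.12 (adjusted p = 0.999).

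In the pairwise comparisons of these wider lists the smallest p was that of Abcg4 for XYF minus XXF (-0.19 ± 0.09), of Rxra for XYM minus XXM (-0.15 ± 0.05), of the oxysterol hydroxylase Cyp7b1 for XXM minus XXF (0.24 ± 0.10) and of Gramd1b for XYM minus XYF (0.20 ± 0.07), in log2 units with SE. Their adjusted p were 0.903, 0.921, 0.634 and 0.435 by edgeR.

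Genes under a shared regulator can rise and fall together from animal to animal even where groups do not differ. With group means removed, the correlation of log2 CPM with Hmgcs1 over the 23 libraries was highest for Acat2, the thiolase before it (r = 0.62, permutation p = 0.00541, rho = 0.55, permutation p = 0.0175), and Idi1, the isomerase that ends the mevalonate pathway (r = 0.55, permutation p = 0.00855, rho = 0.50, permutation p = 0.0235). Adjusted over the family of 36 relations (29 genes and 7 marker lists), the p of both r were 0.135. None of the 29 genes passed. Without the 2 libraries farthest from the median of Hmgcs1, r was 0.51 for Acat2 and 0.58 for Idi1. Lss lay at the other end (r = -0.53, rho = -0.53, adjusted permutation p = 0.135 and 0.211), and r was -0.41 without those libraries.

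Many other genes followed Hmgcs1 more closely. Acat2 ranked 414 of 13765 genes by r with Hmgcs1, and 0 of the 29 members were among the 100 genes most like it. Ndfip2 (r = 0.88), Ywhab (r = 0.85) and Nceh1 (r = 0.84) were the most like. Hmgcs1 correlated at r = -0.48 with the log2 total count and at r = 0.54 with the astrocyte markers (adjusted permutation p = 0.135); the part of depth and of cell mix in these correlations was not tested.

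Pairs of synthesis enzymes were looked at after the values were seen. Of 153 pairs, 25 (16.3%) had r above 0.5, against 5.09% of all gene pairs, and the highest was Fdft1 with Sqle (r = 0.80), which act in succession on squalene. Fdft1 had 8 such partners, Fdps 7, Sqle 5 and Mvk, Pmvk, Mvd and Cyp51 4 each, while Ggps1, Lss, Nsdhl, Hsd17b7 and Sc5d had none. Without XYF replicate 6 there were 21 pairs (13.7%, against 5.14%), led by Sqle with Cyp51 (r = 0.76). XYM replicate 5, the lowest library for 6 synthesis enzymes, was kept in both counts, and gene pairs were not matched for level. These pairs share libraries and depth, and the counts are a description with no test.

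**Figure D5:**
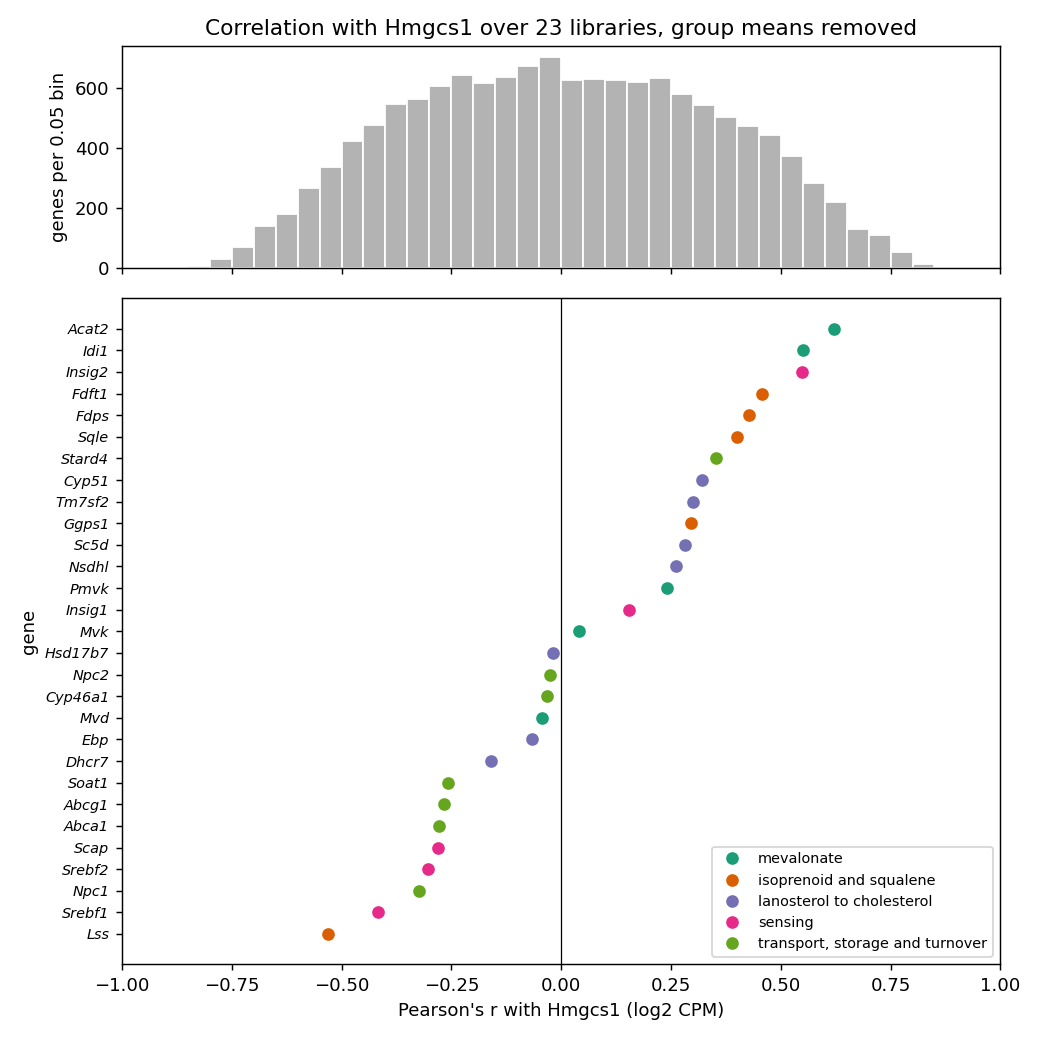
Pearson's r with Hmgcs1 over 23 libraries with group means removed, for all other genes of the table (top, genes per bin of 0.05) and for each of the other 29 members (bottom, coloured by role). Members spread from -0.53 (Lss) to 0.62 (Acat2), inside the span of all genes.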

How the data were processed

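Hippocampal total RNA was ribosome-depleted, made into strand-specific libraries and read at both ends, per the labels' protocols. The authors deposited 1 table with estimated counts per gene, raw per the file headers, and log2 normalized values, used only in an alternative test. The submitters' processing notes name DESeq and mm10. No aligner, counting program or strand setting is given in the sources used here, so reads of overlapping genes may be shared. Per the file headers, genes needed a raw value of at least 20 in every library of at least 1 group.

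Counts were rounded, scaled by the trimmed mean of M-values and tested with edgeR (version 4.0.16; R 4.3.3) as 1 mean per group over all 23 libraries. Contrasts gave XY minus XX, testes minus ovaries, their interaction (testes minus ovaries in XY less that in XX) and 4 pairwise differences. P-values are 2-sided and Benjamini-Hochberg adjusted over all genes (threshold 0.05). The SE is the estimate over the root of F, and intervals are 95%. Log2 CPM used a prior count of 2. Alternatives used DESeq2 (version 1.42.0), limma (version 3.58.1), other scalings, filters and covariates, and each library left out. Correlations used 100000 permutations within groups, 2-sided. Each library is 1 animal by its label. The edgeR test of XY minus XX, testes minus ovaries and their interaction was run on simulated data, as was the permutation correlation. The DESeq2 and limma tests and the other steps were not. Every change simulated for edgeR was larger than any difference estimated here for the 30 genes. Recovery of changes as small as theirs was therefore not measured.

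Members and lists were chosen with earlier results of these data known. Genes were named by a rule: all members at an adjusted p under 0.05, the 3 smallest p for each main effect and the interaction, X-linked members, sensors, the highest per kb of each role, Cyp46a1, and the smallest p of the wider lists. Other genes were named after their values were seen. Ch25h and Erg28 are not analysed here. CPM per kb used GENCODE exons of coding transcripts (GRCm38).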

Additional observations from a re-analysis of the deposited data

Results flagged for a closer look

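In 6 of 120 sets of values (30 genes in 4 groups) 1 library stood apart from the rest of its group by Dixon's test, and chance alone gives about 6 (1 in 20). XYF replicate 6 was high for Mvd (26.8 CPM, the next at 19.2) and low for Sc5d (49.8 CPM, the next at 58.3). XYF replicate 3 was low for Srebf1 (60.9 CPM, the next at 72.9). XXM replicate 3 was high for Npc1 (105.4 CPM, the next at 94.7) and low for Cyp46a1 (108 CPM, the next at 125.1). XXM replicate 1 was low for Abcg1 (70.5 CPM, the next at 78.1). Without XXM replicate 3 the Cyp46a1 difference of XXM from XXF was -0.14 log2 units in place of -0.18.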

How the results depend on the processing

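The count of the 30 genes passing stayed at 0 in 6 of the 7 comparisons under every alternative run. For XYM minus XXM it was 1 (Tm7sf2) under DESeq2, limma voom, limma voom with sample quality weights and limma on the deposited log2 values. Those tests called 21, 17, 22 and 15 of all genes, in that order. With a library left out the count of the 30 was 0 to 1 (Tm7sf2, without XXF replicate 5). The count varying with Hmgcs1 was 1 with no group means removed and 0 to 1 with a library left out (1 without XYF replicate 5 and 1 without XYM replicate 1). With only the 16 libraries under 1000 CPM of choroid plexus markers, an alternative chosen after seeing the data, the median interaction moved from -0.0201 to 0.0191. No member difference at an unadjusted p under 0.05 in the main edgeR test changed sign under any alternative. Of the smaller differences, the Cyp46a1 interaction was above 0 with all libraries and under 0 with those 16. No paired analysis was possible because the labels give no pair or block across groups. The labels give animal numbers, and replicates were numbered here within each group in the order of the samples. The number of libraries, 5 or 6 a group, limits the precision, and the 95% intervals give it.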
